A study of Mus musculus with 248 samples.

Results

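Blood RNA of mice that carried the conditional Cbfb-MYH11 allele was compared with that of littermates without the allele at month 0 (T0), before the fusion was induced. Mice were placed by the genotype in the sample title: CHW and HW were taken as carriers, and CW and WT as non-carriers. This gave 30 of the 248 libraries of the series, 1 per mouse. The training cohort held 9 carriers (7 CHW and 2 HW) and 5 non-carriers (4 CW and 1 WT), and the validation cohort held 12 carriers (10 CHW and 2 HW) and 4 non-carriers (3 CW and 1 WT). All mice were C57BL/6 of both sexes, their cells were labelled PBMC, and blood was drawn from the retro-orbital sinus. Every mouse of the CM arm is CHW, and these mice the series text describes as Cbfb+/56M with Mx1Cre; HW, CW and WT make up the control arm, which lacks 1 or both transgenes. The labels do not spell out the letters, and they give no age at T0; poly(I:C) followed at 4 to 8 weeks of age, at 14 mg/kg in 7 doses, in control mice too. A separate mouse stands behind every library.

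Cbfb codes for the subunit that helps the RUNX transcription factors to hold on to DNA, and RUNX factors direct the formation of all blood lineages. In a form of human acute myeloid leukemia an inversion joins CBFB to MYH11, the gene of smooth muscle myosin heavy chain, and the fusion protein blocks normal RUNX function. In the mouse allele the fusion is made only after Cre recombinase has acted, and Mx1Cre is driven by an interferon-responsive promoter that poly(I:C) switches on. T0 therefore asks what the allele itself, or the animals that inherited it, brought to the blood before any treatment. Whether any recombination had occurred by T0 was not measured here.

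The T0 libraries of the training mice held 20.6 to 30.1 M reads, those of the validation mice 13.9 to 21.3 M. Values are log2 CPM, the log2 of a gene's reads scaled to the size of its library, and a difference is always carriers minus non-carriers. A gene is called where the adjusted p of limma, with sex as a covariate, is under 0.05 over all genes of a cohort's table. By label, training carriers were 4 F and 5 M, and training non-carriers 2 F and 3 M. Validation carriers were 5 F and 7 M, and validation non-carriers 3 F and 1 M, the WT mouse 2683. Although the samples were labelled PBMC, neutrophil genes (S100a8, S100a9 and 7 more) summed to 1503 to 13299 CPM in the training and 2005 to 9921 CPM in the validation libraries, and erythroid genes to 1087 to 4755 and 2209 to 20238 CPM. Among the marker genes listed in a table, none was at 0 reads in all T0 libraries of its cohort.

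Of these 30 libraries, 6 stood apart. The validation mouse labelled CHW with the number 2700 had 8 reads of the knock-in transcript MHY11, against 180 to 321 in the other 11 carriers. At its 7 time points MHY11 lay between -6.30 and 0.05 log2 CPM, while the 61 other CHW libraries of that cohort lay between 2.79 and 5.39. The T0 library of the CHW mouse 2731, labelled F, had Xist at 1.24 and Ddx3y at 5.21, whereas the other 13 F libraries had Xist at 9.33 or more. The training mouse CHW 3334 had the highest sum of neutrophil genes (13299 CPM) and of basophil and mast cell genes (652 CPM) and the lowest sum of B cell genes (1597 CPM) of its cohort. Among validation mice, CHW 2690 had the highest neutrophil (9921 CPM) and erythroid sum (20238 CPM). HW 2705 had the highest sum of platelet genes (11620 CPM) and the highest Hsph1 level (8.63, with the next at 7.28). Of the males, CHW 2718 and HW 2705, had Xist at 5.70 and 5.82, against at most 2.17 in the other 14, with Ddx3y at male levels. All 6 were kept as labelled.

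Transcripts of the allele separated carriers from non-carriers before induction. MHY11, which the tables list without an Ensembl identifier, was found in the validation carriers at -1.17 (2700), a median of 3.80 and a highest value of 4.02. The 4 non-carriers had -6.30, -6.30 and -3.13 (CW) and -3.56 (WT), which is 0, 0, 2 and 1 reads. No carrier overlapped with a non-carrier, and the difference was 7.85 ± 0.80 log2 (limma estimate ± standard error, adjusted p = 0.000505), or 8.50 without 2700 (adjusted p = 3.23e-07). In reads, carriers held 2834 of 219.5 M reads and non-carriers 3 of 68.2 M reads, a ratio of 293.5 with an exact 95% interval of 100.3 to 1424 that covers counting error only. MHY11 was the 1 called gene of the validation cohort, or 0.00735% of 13607, although voom, which weights reads by their precision, gave it an adjusted p of 0.569 and called 0 genes.

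In the training cohort MHY11 was close to the limit of detection. The 7 CHW mice had 0, 0, 2, 2, 3, 5 and 2 reads, the 2 HW mice 2 and 1, and each of the 5 non-carriers 0 reads. Carriers thus held 17 of 221.4 M reads, at least 2.92-fold more than a floor of 3 reads over the 113.9 M reads of the non-carriers. On the log2 scale, where the value of 0 reads depends on the prior, the difference was 2.50 ± 0.67 with an adjusted p of 0.282. An exact two-sided permutation test over the mice gave p = 0.0155 in the training and p = 0.000549 in the validation cohort, or 0.0155 and 0.00137 after adjustment over the 5 tests of this family.

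The mouse gene Myh11 (ENSMUSG00000018830, chromosome 16, 14194527 to 14292188 on GRCm38.p6) carried the same split in the training cohort. Its 9 carriers lay between 1.66 and 2.16 with a median of 1.89 log2 CPM, which is 68 reads or more. The non-carriers had -2.01, -1.86, -1.83 and -2.42 (CW) and -2.26 (WT), which is 4 to 6 reads. The groups did not overlap, and carriers were 16.1-fold higher (4.01 ± 0.14 log2, adjusted p = 5.91e-09; exact permutation p = 0.0005, the smallest that 2002 splits allow). Of 12 other smooth muscle and stromal genes measured, 9 were higher and 3 lower, with a median difference of 0.67 against -0.04 over all genes. Of these, 0 were called (0.0108% of all genes) and 1 had an unadjusted p under 0.05, a share of the list close to the 9.13% of all genes. The gene was not analysed in the validation cohort. How reads that match both Myh11 and MHY11 were assigned is not given in the sources used here, so the split between these genes is uncertain.

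Cbfb itself (ENSMUSG00000031885, chromosome 8, 105170674 to 105217989) was slightly lower in carriers of both cohorts. In the training cohort 9 carriers lay between 6.25 and 6.46 with a median of 6.38, and the non-carriers at 6.53, 6.53, 6.53 and 6.54 (CW) and 6.45 (WT). Of the 9 carriers, 8 were below all non-carriers, and the difference was -0.16 ± 0.05. Validation carriers lay between 6.88 and 7.72 with a median of 7.12, and the non-carriers at 7.65, 7.44 and 7.46 (CW) and 7.55 (WT). Here 11 of 12 carriers were below all non-carriers, and the exception, 2700, was above them all. The difference of -0.36 ± 0.11 was -0.44 without 2700. Over all genes neither passed (adjusted p = 0.342 and 0.567, and 0.201 without 2700). As a single gene followed for its locus, Cbfb gave exact permutation p-values of 0.002 and 0.00385, or 0.00333 and 0.00481 after adjustment over the 5 tests. In bulk blood, fewer cells that hold a transcript and less of it per cell cannot be told apart.

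**Figure D1:**
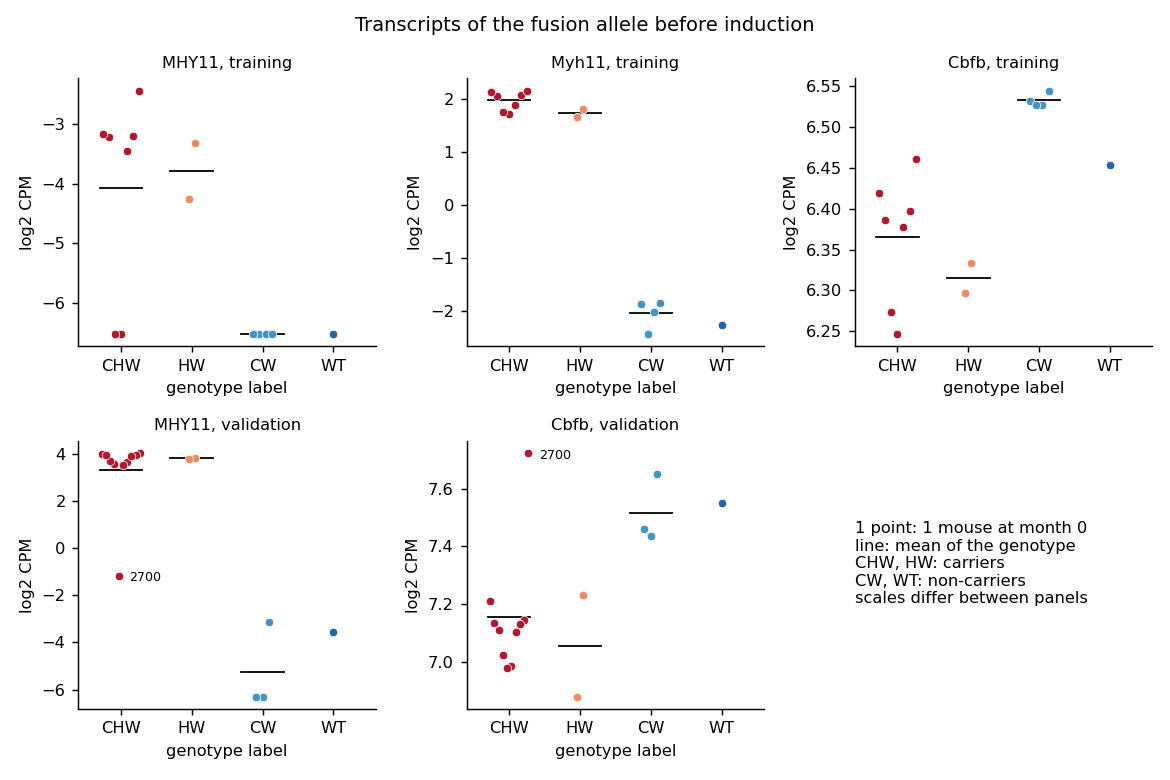
Level of MHY11, Myh11 and Cbfb at T0 in log2 CPM, by genotype label, with 1 point per mouse and a line at the genotype mean. Myh11 splits carriers (1.66 to 2.16) from non-carriers (at most -1.83), and mouse 2700 sits at -1.17 for MHY11 and at 7.72 for Cbfb; scales differ between panels.

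Outside the allele few genes were called, in cohorts with few non-carriers. Beside Myh11 the training cohort had 1 more called gene, Hsph1, so that 2 of 18508 genes were called (0.0108%), both higher. Unadjusted p-values under 0.05 were reached by 1689 genes in the training cohort (9.13%) and by 1166 in the validation cohort (8.57%), mostly lower in carriers (1098 and 926). To ask which genes differ alike, the larger of the 2 cohort p-values was taken for genes of the same sign and adjusted over the 13232 genes measured in both tables. Not 1 gene passed with limma (0%), and voom likewise gave 0. At an unadjusted p under 0.05 in both cohorts, 80 genes shared their sign (0.605%), 11 of them higher (0.0831%) and 69 lower (0.521%), and 13 had opposite signs (0.0982%). Over all shared genes 60.3% had the same sign, and Pearson's r of the differences across genes, which are not independent replicates, was 0.18, or 0.03 without 2700 and 2731.

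The direction of these 80 genes leaned on the scaling of the libraries. With median-ratio scaling the count was 83 with 31 higher and 52 lower, with quantile normalization 80 with 23 and 57, and without the sex covariate 75 with 21 and 54. Their differences were small: the 69 lower genes had medians of -0.35 (training) and -0.33 (validation), and the 11 higher genes 0.78 and 0.52. Since the same values chose them, these figures describe the genes and test nothing. Carriers and non-carriers did not overlap for 12 of the 80 in the training cohort and for 3 in the validation cohort. Over all genes, 0.113% were higher and 0.724% lower without overlap in the training cohort, and 0.0367% and 0.228% in the validation cohort. Not 1 gene was free of overlap in both cohorts in the same direction, with or without 2700.

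**Figure D2:**
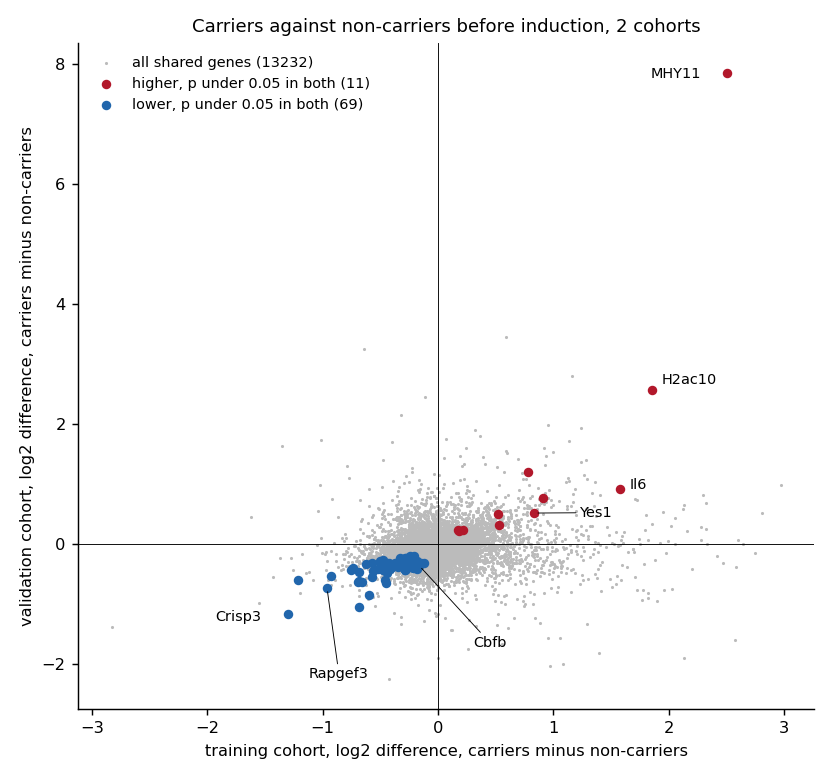
Log2 difference of carriers minus non-carriers at T0 in the training (x axis) and validation cohort (y axis), 1 point per gene for the 13232 shared genes. The 11 higher and 69 lower genes with an unadjusted p under 0.05 in both are coloured; MHY11 lies far from the rest, at 2.50 and 7.85.

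Among the genes with the same sign, the ones with the smallest larger p after MHY11 were, in order, Crisp3, Cbfb, Mpp4, Il6, Yes1 and Rapgef3. None passed the adjustment over all genes in either cohort. Crisp3, which codes for a secreted cysteine-rich protein stored in granules, was lower in carriers. Its 9 training carriers lay between -0.86 and 2.46 with a median of 0.56, and the non-carriers at 2.31, 1.69, 1.44, 2.05 and 1.99, so that 6 of 9 were below all non-carriers. In the validation cohort carriers lay between 0.41 and 2.38 with a median of 1.40, and non-carriers at 3.38, 2.41, 2.06 and 2.70, so that 11 of 12 were below. The differences were -1.30 ± 0.37 (adjusted p = 0.311) and -1.16 ± 0.34 (adjusted p = 0.567). The highest validation carrier was again 2700, and the difference was -1.30 without it.

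Yes1, a tyrosine kinase of the Src family, was higher in carriers. In the training cohort all 9 carriers (1.01 to 1.92, median 1.59) lay above the non-carriers (0.83, 0.55, 0.44 and 0.99 in CW and 0.71 in WT). Validation carriers lay between 1.12 and 2.27 with a median of 2.03, and 10 of 12 were above the non-carriers (1.45, 1.31, 0.88 and 1.61). The 2 mice within the non-carrier range were 2700 at 1.12 and an HW mouse at 1.54. The differences were 0.84 ± 0.15 (adjusted p = 0.115) and 0.52 ± 0.18 (adjusted p = 0.567, and 0.63 with an adjusted p of 0.381 without 2700). Yes1 lies on chromosome 5 (32611171 to 32687066), away from both fusion partners.

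Il6, the gene of the inflammatory cytokine interleukin-6, was also higher but scarce. Training carriers lay between -2.51 and -0.66 with a median of -1.53, and non-carriers at -1.54, -3.33, -1.62, -4.19 and -4.31, with 5 of 9 carriers above them all. In the validation cohort 10 of 12 carriers (0.10 to 2.44, median 1.35) were above the non-carriers (0.10, 0.14, 0.91 and 0.31). The differences were 1.58 ± 0.44 (adjusted p = 0.30) and 0.92 ± 0.32 (adjusted p = 0.567). Rapgef3, which codes for a cAMP-activated exchange factor of Rap proteins, differed by -0.96 ± 0.23 and -0.73 ± 0.26. All 9 training carriers (0.18 to 1.84) were below the non-carriers (2.23 to 2.57), and 9 of 12 in the validation cohort.

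The other genes of this ranking were mostly small differences of one sign. Carns1, the synthase of the dipeptide carnosine, was free of overlap in the training cohort (carriers 5.86 to 6.59, non-carriers 6.69 to 6.90), with differences of -0.57 and -0.31. Mpp4, a scaffold protein of the membrane guanylate kinase family, differed by -0.69 and -1.04. Limk1, a kinase that controls actin filaments, differed by -0.21 and -0.28, Mpg, a DNA repair glycosylase, by -0.35 and -0.33, and Pygm, a glycogen phosphorylase, by -0.44 and -0.32. Rnf125, an E3 ubiquitin ligase, was higher by 0.53 and 0.32. The other 8, Gm16170, ENSMUSG00000097154, Dip2a, Pex11g, Gm15337, Prox2, Mapkbp1 and Tas1r3, differed by -0.93 to -0.24 in the training and by -0.63 to -0.33 in the validation cohort. Outside the ranking, the histone gene H2ac10, singled out after its values were seen, differed by 1.86 ± 0.73 and 2.57 ± 0.69. Its mean level was only -3.07 and -2.84 log2 CPM, so these differences may depend on the value given to 0 reads. With the training mouse 3334 left out, 35 training genes were called in place of 2, 18 higher and 17 lower, among them Yes1 (0.77, adjusted p = 0.0326), Rapgef3 (-0.79, adjusted p = 0.0225) and Carns1 (-0.56, adjusted p = 0.0326). Of those 35, 26 were measured in the validation cohort, 24 had the same sign there, and these 3 were the ones with an unadjusted p under 0.05. Over all shared genes 60.3% had the same sign with 3334 kept, and the share without it is not given here. The 35 come from the fit with the most calls among the 14 that leave out 1 training mouse. These counts therefore support nothing.

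**Figure D3:**
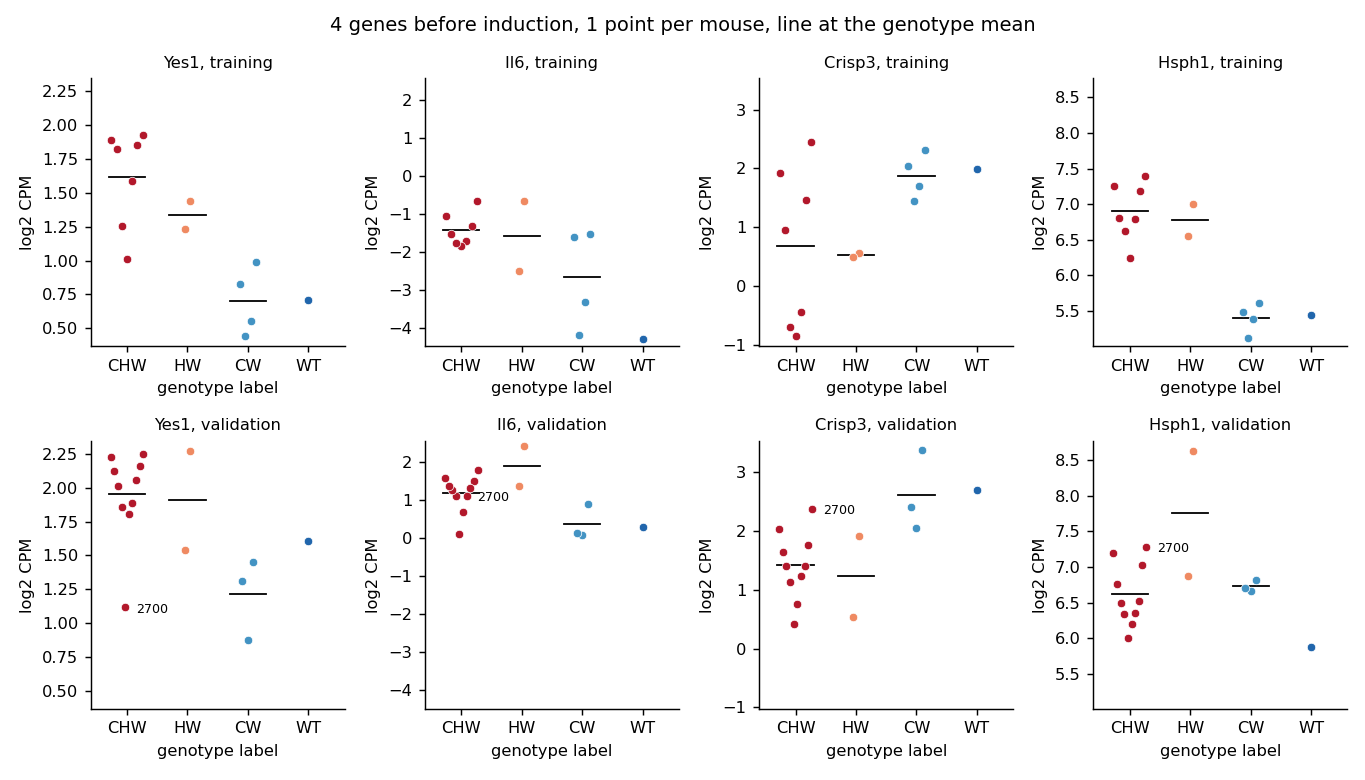
Yes1, Il6, Crisp3 and Hsph1 at T0 in log2 CPM by genotype label, training above and validation below, with 1 point per mouse and a line at the genotype mean. Hsph1 separates carriers (6.25 to 7.40) from non-carriers (5.12 to 5.62) in the training cohort and overlaps in the validation cohort.

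Hsph1 (ENSMUSG00000029657, chromosome 5, 149616843 to 149636498) codes for a large heat shock protein that helps HSP70 chaperones to exchange nucleotide. Its training carriers lay between 6.25 and 7.40 with a median of 6.81, and the non-carriers at 5.62, 5.39, 5.48 and 5.12 (CW) and 5.44 (WT). The groups did not overlap, and carriers were 2.76-fold higher (1.46 ± 0.17 log2, adjusted p = 0.00972). The call was lost with the library group as a covariate (1.38, adjusted p = 0.172), for CHW against CW (1.5, adjusted p = 0.219) and for HW against CW and WT (1.29, adjusted p = 0.308). Library group is the mark G1 to G7 in the sample title. At T0, G6 (CHW 3338 and 3357) and G7 (CHW 3370) held carriers only, so group and genotype are partly confounded. The call was also lost without CW 3342 (1.46, adjusted p = 0.0598), CW 3349 (1.37, adjusted p = 0.0731) or WT 3350 (1.47, adjusted p = 0.0656), with differences about as large as in all mice. In the validation cohort carriers (6.00 to 8.63, median 6.65) overlapped with the non-carriers (6.82, 6.66 and 6.70 in CW and 5.87 in WT). The difference there was 0.30 ± 0.37 (adjusted p = 0.816), 0.20 without HW 2705, and -0.04 without the WT mouse. That WT mouse is the only male non-carrier of the cohort, so with sex as a covariate the last fit rests on the mice labelled F. These include CHW 2731, whose Xist and Ddx3y levels go against its label.

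Other chaperone genes accompanied Hsph1 in the training cohort, in a list of 20 chosen after the values were seen. Of 20 measured, 18 were higher and 13 of these had an unadjusted p under 0.05, where 9.13% of all genes had one and 3.19% were higher with one. The median difference was 0.50 against -0.04 over all genes, and Hsph1 was the 1 call. Without CHW 3334, 3 of the 20 were called, where 35 of all 18508 genes were. They were Hsph1, Stip1 (0.86, adjusted p = 0.032) and Fkbp4 (0.56, adjusted p = 0.032). Since the list was chosen for these values, the counts describe it and support nothing. Stip1, which links HSP70 to HSP90, differed by 0.83 ± 0.14 (adjusted p = 0.0929), the constitutive HSP70 gene Hspa8 by 0.51 ± 0.10 (adjusted p = 0.118) and the co-chaperone gene Dnajb1 by 0.60 ± 0.16 (adjusted p = 0.265). Hspa1a and Hspa1b, the inducible HSP70 genes, differed by 1.40 and 1.34, but they are nearly identical copies whose reads may be split between them. The cold-inducible RNA-binding gene Cirbp was lower by 0.79 ± 0.16 (adjusted p = 0.140), with no overlap. Without 3334 Cirbp differed by -0.67 and was called (adjusted p = 0.017). In the validation cohort 16 of 19 chaperone genes were higher with a median of 0.30, or 0.23 without HW 2705, and 0 had an unadjusted p under 0.05 (2 without HW 2705, 1 without CHW 2690), against 8.57% of all genes.

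Heat shock factor binds inverted repeats of the letters GAA, so the promoters of these genes were searched for GAANNTTC or TTCNNGAA, each its own reverse complement, within 250 bases before a RefSeq start (GRCm38.p6). The genes shown are the called Hsph1 and 2 chaperone genes with a match; capitals mark the 8 matching bases, all 5′ to 3′ on the gene's strand.
Hsph1, chr5:149636351-149636380, minus strand: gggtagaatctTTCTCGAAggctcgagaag
Hspa1a, chr17:34972242-34972271, minus strand: cgaaactgctgGAAGATTCctggccccaag
Dnaja1, chr4:40722333-40722362, plus strand: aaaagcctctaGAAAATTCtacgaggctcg
The match began 33 or 54 bases before the 2 starts of Hsph1, and 1 of 3 starts of Dnaja1 had it. A match was present for 8 of the 16 chaperone genes that have a sequence in the RefSeq table and for 14.5% of 27025 genes. Stip1, Dnajb1 and Cirbp held none in these windows. The list holds heat shock genes by name and was chosen after the values were seen, so its share says nothing about carriers. Whether heat shock factor had a part in the differences was not tested.

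Genes around the knock-in locus showed no step like that of MHY11 or Myh11. Within 1 Mb of the Cbfb start, 60 other genes were measured for training and 42 for validation, and 0 were called. The median difference was -0.07 and -0.08 in these cohorts, against -0.04 and -0.06 over all genes. At an unadjusted p under 0.05, 1 was higher and 7 were lower in the training cohort, where 3.19% and 5.93% of all genes were, and 0 and 2 in the validation cohort, where 1.76% and 6.81% were. Of the nearest measured genes, none was called. Tradd, an adaptor of tumor necrosis factor receptor signalling, differed by -0.03 ± 0.09 and -0.05 ± 0.10, Ciao2b by 0.00 ± 0.10 and 0.12 ± 0.10, Rrad by -0.08 ± 0.15 and 0.02 ± 0.10, and D230025D16Rik by 0.10 ± 0.09 and 0.09 ± 0.09. Ces2f (0.89 ± 0.46 and -0.47 ± 0.67) and Ces2g (0.90 ± 0.55 and -0.34 ± 0.44) differed more, with opposite signs. Within 1 Mb, 43 of 60 training genes and 27 of 42 validation genes were lower. All 7 training genes lower at an unadjusted p under 0.05 were lower by more than Cbfb (-0.16). They were Terb1 (-0.86), Tsnaxip1 (-0.77), Car7 (-0.68), Tk2 (-0.35), Pskh1 (-0.30), Dus2 (-0.21) and Edc4 (-0.18). In the validation cohort Tk2 (-0.15), Dus2 (-0.14), Pskh1 (-0.12) and Edc4 (-0.12) were lower by less than Cbfb (-0.36). Car7 differed by 0.007 there, and Terb1 and Tsnaxip1 were not measured. The 2 validation genes lower at an unadjusted p under 0.05, Carmil2 (-0.33) and Elmo3 (-0.26), came closer to Cbfb. Around Myh11 on chromosome 16, 0 of 13 and 0 of 11 neighbours were called.

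**Figure D4:**
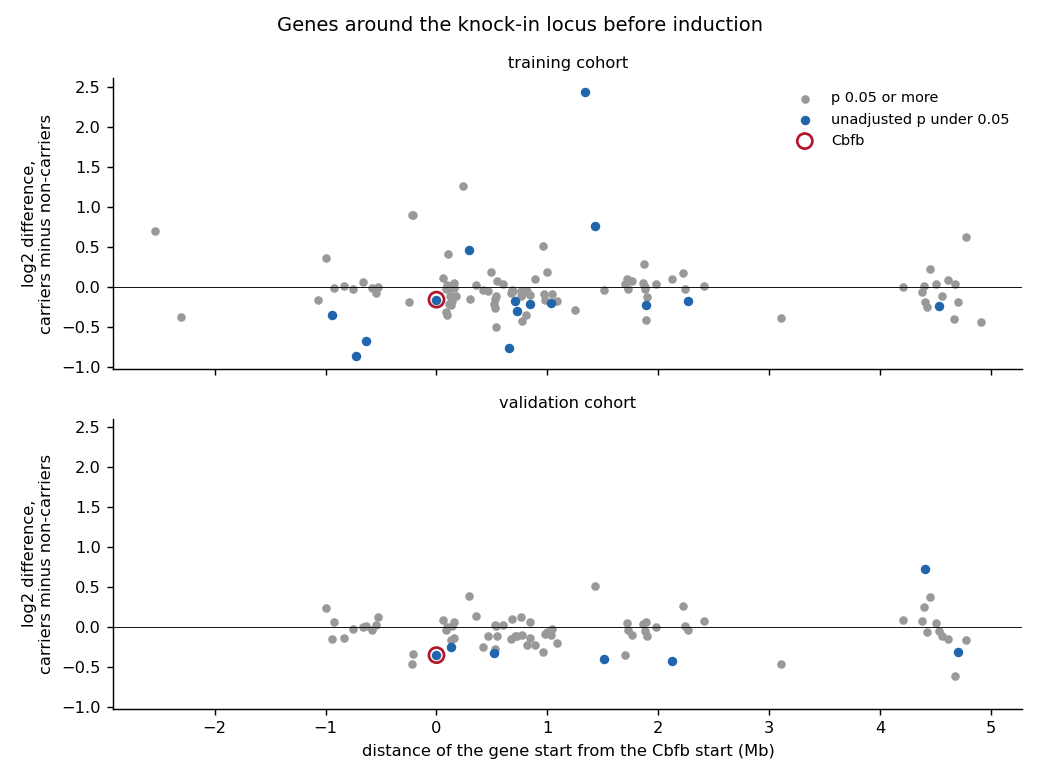
Log2 difference of carriers minus non-carriers at T0 against the distance of each gene's start from that of Cbfb, within 5 Mb, for the training (top) and validation cohort (bottom). Cbfb (ring) lies at -0.16 and -0.36, and the neighbours within 1 Mb have a median of -0.07 and -0.08.

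The RUNX partners of Cbfb and their target genes did not pass the test in either cohort. Runx1 differed by 0.05 ± 0.10 (training) and -0.31 ± 0.11 (validation; unadjusted p = 0.0119, adjusted p = 0.567), and Runx3 by 0.07 ± 0.09 and -0.36 ± 0.14. Of 24 RUNX target genes of blood cells, such as Csf1r, Spi1 and Mpo, 15 were higher and 9 lower in the training cohort with a median of 0.06, and of 22 in the validation cohort 14 were higher and 8 lower with a median of 0.10. Without 3334 the training count was 11 higher and 13 lower, with a median of -0.04. The list of genes that mark the fusion response at later months, which was taken from later samples of these same mice, had 0 of 24 called in each cohort. In the training cohort 3 were higher and 2 lower at an unadjusted p under 0.05, where 3.19% and 5.93% of all genes were, and in the validation cohort 1 was higher, where 1.76% of all genes were. Cpa3, a mast cell protease, differed by 1.54 ± 0.44 in the training cohort (adjusted p = 0.309), whose mouse 3334 had the highest sum of basophil and mast cell genes. Without 3334 it differed by 1.60 ± 0.46 (adjusted p = 0.169), and in the validation cohort by 0.20 ± 0.27. The most abundant genes of this list, Cecr2 (-0.27 and -0.21), Akap12 (-0.46 and 0.01), Il9r (0.10 and 0.20) and Hpgd (0.12 and 0.02), were not called.

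Cell type markers had 0 calls in 11 lists and in both cohorts. Neutrophil genes leaned in opposite directions: their 9 members had a median of -0.16 in the training cohort, with 7 lower, and of 0.68 in the validation cohort, with 8 higher. There, S100a8 (0.90 ± 0.30), S100a9, Cxcr2, Retnlg and Ngp had unadjusted p-values under 0.05, where 8.57% of all genes had one. The summed level was 2005 to 2833 CPM in non-carriers and 2334 to 5104 in carriers other than CHW 2690, which was at 9921. Without 2690 the median was 0.48, with 4 of 9 at an unadjusted p under 0.05. Without 3334 the training median was -0.49, with 3 of 9 lower at an unadjusted p under 0.05. All 10 B cell genes were lower in training carriers with a median of -0.35, and 7 of 10 in validation carriers with -0.18. Without 3334, 9 of 10 were lower in the training cohort with a median of -0.18, but 6 had an unadjusted p under 0.05, against 0 with it. All 10 T cell genes were higher in training carriers with a median of 0.21 (0.35 without 3334, with 4 at an unadjusted p under 0.05). In validation carriers 7 of 10 T cell genes were lower, with a median of -0.14. The 10 platelet genes were all higher, with 0.46 and 0.31 (0.14 without 2731 and 0.64 without 2690 in the validation cohort). Basophil and mast cell genes were all higher too. Their medians were 0.81 for 8 training and 0.24 for 7 validation genes. Without 3334, 7 of 8 were higher, with 0.82. Erythroid genes were higher for 8 of 10 (0.50) and 9 of 10 (0.34, or 0.08 without 2690). NK genes were split 4 and 4 in training carriers (-0.01), and all 8 were lower in validation carriers (-0.36). The part of these cell types in the gene differences above was not tested. Interferon response genes, which poly(I:C) induces, had medians of 0.06 and 0.01 with 0 of 20 and 0 of 19 called. Medians for stem and progenitor genes were 0.17 and 0.04, and for cell cycle genes 0.02 and -0.05, with 0 called.

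Carriers of the 2 labels were then compared with each other, since CHW mice belong to the CM arm and HW mice to the controls. For the allele's own transcripts no difference was called: CHW minus HW was -0.34 ± 1.37 and -0.04 ± 1.10 for MHY11 in the training and validation cohorts, 0.36 ± 0.20 for Myh11, and 0.03 ± 0.10 and 0.04 ± 0.17 for Cbfb. With 2 HW mice per cohort the standard errors of MHY11 exceed its differences, so their size is uncertain. The validation values include 2700. No gene was called in the training cohort with limma (0%, with 461 genes or 2.49% at an unadjusted p under 0.05, 1.09% higher in CHW and 1.4% lower; voom was not run on this comparison). In the validation cohort 1 gene was called (0.00735%), Chst1, a sulfotransferase, with 3 to 8 reads in the 10 CHW mice and 0 in both HW mice. Its non-carriers had 4 or 5 reads, so the 2 HW mice stood apart from all others, on few reads. At an unadjusted p under 0.05 there were 3.47% of the genes, 2.01% higher in CHW and 1.46% lower. Without HW 2720 the count was 1572. That fit sets the single HW mouse 2705 against CHW and assumes that it varies as CHW mice do, so the count describes that library.

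The control mice were finally followed after induction, as they give libraries that T0 did not use. Each mouse was averaged over month 1 and later (10 libraries per mouse for training and 6 for validation), and HW was set against CW and WT. These are the same control mice as at T0, 2 HW against 5 and 2 HW against 4, so they repeat the measurement in time and not in animals. In the training cohort Myh11 was the 1 call (0.0054%), with 1.84 and 1.65 in HW and -2.74 to -1.92 in the others (4.16 ± 0.32, adjusted p = 0.00024). In the validation cohort MHY11 was at 2.97 and 3.07 in HW and -5.12 to -3.70 in the others (7.93 ± 0.63, adjusted p = 0.00949), and 6 genes were called (0.0441%). At an unadjusted p under 0.05 there were 10.1% of the training genes (9.69% higher in HW and 0.411% lower) and 10.9% of the validation genes (6.05% and 4.86%). Sex and genotype are separated in the validation controls by the WT male 2683 alone, and without the sex covariate MHY11 was the 1 call. The calls of the peptide transporter Slc15a2, the keratin Krt17 and ENSMUSG00000105703 fell away then, and 2683 was the lowest mouse for each.

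Hsph1 was higher in both HW mice of both cohorts after induction. Training HW mice had 6.23 and 6.17, the CW mice 5.54, 5.60, 5.51 and 5.73 and the WT mouse 6.03 (0.65 ± 0.14, adjusted p = 0.383, unadjusted p = 0.000693). Validation HW mice had 7.15 and 7.33, the CW mice 5.87, 5.64 and 6.10 and the WT mouse 5.42 (1.82 ± 0.18, adjusted p = 0.0146, or 1.48 with 0.0784 without the sex covariate). Dnajb1 was called with it in the validation cohort (1.16 ± 0.13, adjusted p = 0.0232, or 0.99 with 0.0633 without the sex covariate). HW mice lay above all other control mice for Hsph1 in either cohort. CHW carriers of the validation cohort did not share this at T0, where 10 CHW mice (6.00 to 7.28) spanned the 3 CW mice.

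Yes1 kept its direction in the controls. Training HW mice had 1.66 and 1.52 against 0.49 to 0.99 in the others (0.71 ± 0.22, adjusted p = 0.383), and validation HW mice 2.64 and 2.88 against 1.98 to 2.74 (0.67 ± 0.30, adjusted p = 0.460). Cbfb was lower in validation HW mice (6.89 and 7.06 against 7.20 to 7.54; -0.57 ± 0.17, adjusted p = 0.406) but not in training HW mice (5.83 and 5.58 against 5.28 to 5.69; 0.15 ± 0.17). Crisp3 likewise was lower in validation HW mice (2.47 and 3.12 against 3.69 to 4.25) and overlapped in the training cohort (0.89 and 0.52 against 0.14 to 1.34). Of the 80 genes that shared their sign at T0, 77 kept it in the validation controls (96.25%) and 18 in the training controls (22.5%), and 17 in both. The median difference of the 80 was -0.30 in the validation and 0.26 in the training controls, against -0.12 and 0.26 over all genes. The same HW, CW and WT mice helped to choose the 80 at T0, so part of any agreement is built in. Of the 80, 69 were lower at T0, so the shift over all genes bears on both counts. The share of all genes that kept their sign is not given here, so these counts support nothing.

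**Figure D5:**
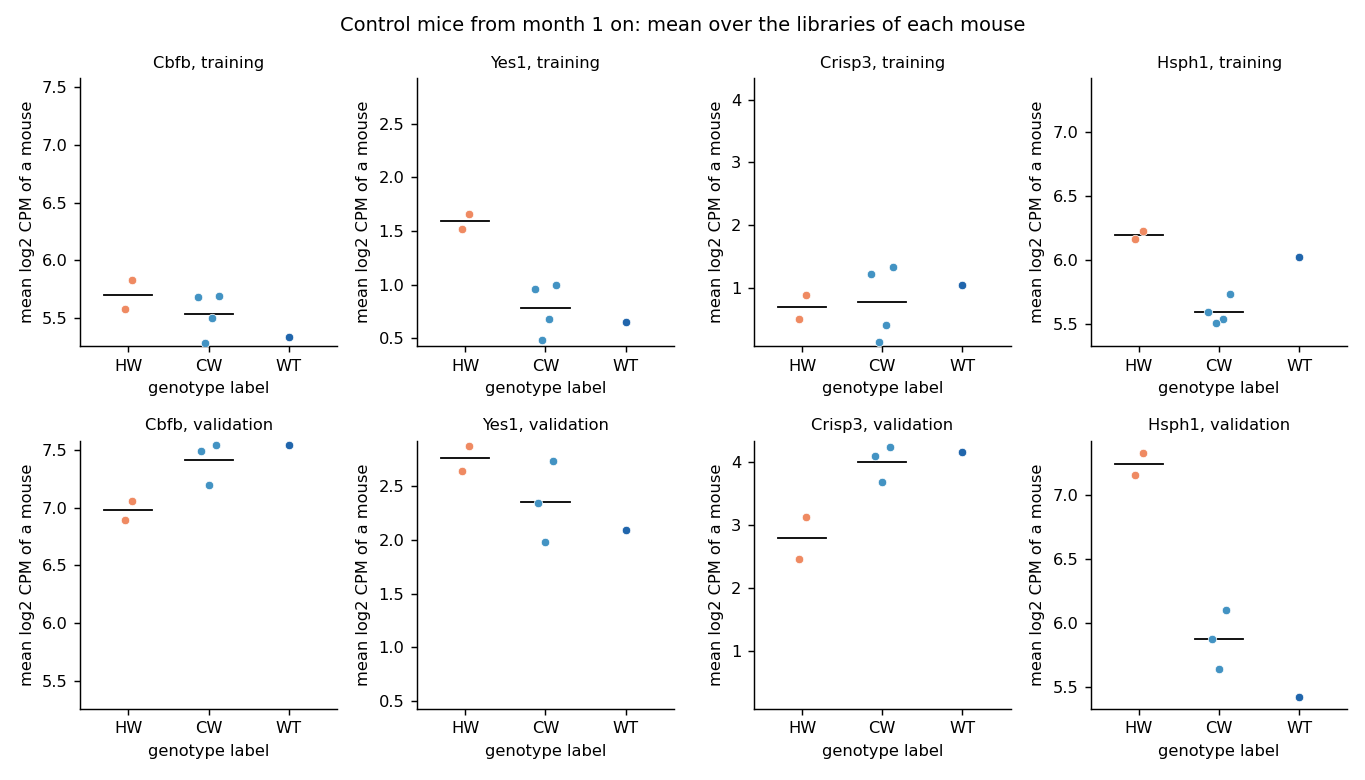
Mean log2 CPM of each control mouse over month 1 and later for Cbfb, Yes1, Crisp3 and Hsph1, by genotype label, training above and validation below, with 1 point per mouse and a line at the genotype mean. Both HW mice lie above all other controls for Hsph1 in each cohort (6.17 and more against at most 6.03, and 7.15 and more against at most 6.10).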

How the data were processed

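Blood RNA of 30 mice at T0 and of their control mice at later months was analysed as deposited. The deposited values are log2 CPM, 1 table per cohort, normalized separately; per the submitters' processing notes, the authors aligned reads with STAR to GRCm38, counted them with featureCounts of Subread and used edgeR, versions not given in the sources used here. Training libraries were made with RiboErase, and all validation T0 libraries were unstranded in 1 sequencing batch, per the labels. With 0.25 reads taken as the added constant, adjusted for depth, whole reads were recovered for 100% of values (tolerance 0.01), so 0 reads stand at -6.52 (training) or -6.30 (validation).

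Each cohort was fitted with limma 3.58.1 (R 4.3.3), with an intensity trend, on genotype class and sex, two-sided, with Benjamini-Hochberg adjustment over 18508 or 13607 genes; an adjusted p per gene in the text is limma's unless voom or the permutation test is named. Exact permutation tests ran over mice in Python 3.11.15; Myh11 is not in the validation table, so the family is 5 tests rather than the 6 planned. Fits were tested on simulated data. Coordinates come from RefSeq GRCm38.p6, matched for 15361 and 12160 genes. Named genes were MHY11, Myh11, Cbfb, called genes, the genes of the same sign ranked by the larger p (20), neighbours of Cbfb, and the 4 most abundant fusion-response genes; others are named as chosen after their values were seen. Heat shock genes and later-control calls are of that kind. The members and lists were chosen with earlier results of these data known. Alternatives covered scaling, prior, filter, voom, covariates, genotype subsets and each mouse left out.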

Additional observations from a re-analysis of the deposited data

Results flagged for a closer look

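The groups of 4 to 10 mice were examined for 7 genes, in 25 groups, and 5 had a highest or lowest mouse farther from the rest than Dixon's 95% limit allows; chance flags about 1 group in 20. Mouse 2700, labelled CHW in the validation cohort, gave 3 of them: MHY11 at -1.17, Cbfb at 7.723 and Yes1 at 1.119 log2 CPM. Its Yes1 level was within the range of the non-carriers, its MHY11 level between those of the non-carriers and of the other carriers, and its Cbfb level above all of them. The WT mouse 3350 was the lowest training non-carrier for Cbfb, at 6.453, below 4 CW mice at 6.53 to 6.54. The WT mouse 2683 was the lowest validation non-carrier for Hsph1, at 5.874, below 3 CW mice at 6.66 to 6.82.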

How the results depend on the processing

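With 1 to 4 mice per genotype among HW, CW and WT, counts of calls moved with single libraries. The training count of 2 became 1 (CHW against CW only; genes with a mean log2 CPM above 1; library group as a covariate), 0 (HW against CW and WT only), 8 (median-ratio scaling) and 4 (quantile normalization), and ran from 1 to 35 with each mouse left out, the highest without CHW 3334. The validation count of 1 became 0 (CHW against CW only, HW against CW and WT only, and voom) and 2 (without 2731, and without 2700 and 2731), and ran from 1 to 4 with each mouse left out, the highest without CW 2702. CHW against HW ran from 0 to 2 in the training and from 1 to 1572 in the validation cohort, in an alternative added after seeing the data, the latter without HW 2720, which leaves 1 HW mouse that is assumed to vary as CHW mice do. HW against CW and WT after induction ran from 1 to 5 and from 0 to 636, the latter without CW 2692 and the 0 without either HW mouse, and was 1 without the sex covariate in the validation cohort, also added later. Leaving out 2683 there was not run, since sex and genotype then coincide. The count of genes alike in both cohorts was 0 throughout. The 80 genes of the same sign are 0.6046% of the shared genes. That share became 0.1285% (HW against CW and WT only), 1.179% (library group) and 0.3854% (without 2731, and without 2700 and 2731), and ran from 0.2418% without CW 2692 to 0.8389% without HW 3335 or HW 2705. Hsph1 in the validation cohort turned to -0.04257 for CHW against CW only and, with each mouse left out, ran from -0.04257 without WT 2683 to 0.3904. The fits for CHW against CW only and without WT 2683 are not separate checks. With sex as a covariate, both rest on the CHW and CW mice labelled F. The causes were not tested. No paired analysis was possible because each mouse has 1 genotype and 1 library at T0. MHY11 rests on few reads in the training cohort, where no T0 library had more than 5. Depth was alike: carriers held 17 of 221.4 M reads there and 2834 of 219.5 M in the validation cohort. The cause of this gap was not tested.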

Other observations

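In the weekly series of the validation cohort, which has no T0 library, 3 CHW mice had mean MHY11 levels of 4.61, 4.14 and 4.25 log2 CPM over 3 libraries each, and the CW and the WT mouse -6.30 and -5.55. These mice are others than those at T0, and their libraries follow induction. Mean Yes1 was 1.32, 1.31 and 1.84 in the CHW mice and 2.23 and 2.0 in the CW and the WT mouse, the reverse of the order at T0. Mean Crisp3 was -0.13, 0.69 and 0.63 against 3.83 and 3.79, and mean Il6 3.77, 2.0 and 3.19 against 0.57 and 0.78, both in the order seen at T0. Levels varied widely between libraries of the same CHW mouse. Crisp3 ran from -2.11 to 2.29, from -2.42 to 2.37 and from -1.64 to 2.59. Il6 ran from 1.07 to 5.21, from -0.67 to 5.29 and from 1.09 to 4.71. Mean Hsph1 was 6.17, 6.20 and 5.44 against 6.77 and 6.39, the reverse of the training order at T0, and mean Cbfb 7.50, 7.42 and 7.36 against 7.40 and 7.58, which overlap. With 1 mouse of each control genotype no test was made.

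Training HW controls held few MHY11 reads, with monthly means from -5.36 to -3.32 over months 1 to 6, and both HW mice had 0 reads at months 8 and 10. CW and WT controls had 0 reads at each of months 0 to 10.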
